A study of Homo sapiens with 4 samples.

Results

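Transcription factors of the SOX, PAX, LHX and sine oculis homeobox families were examined in BT-16 and CHLA-266, 2 established cell lines of atypical teratoid/rhabdoid tumor of the MYC subgroup (AT/RT-MYC), before and after chemotherapy. The genes are all rows of the count table whose symbol is a family name (such as SOX, PAX or LHX) followed by a number alone, which gave 41 of 18449 gene symbols (18 SOX genes, 9 PAX genes, 8 LHX genes and 6 sine oculis genes such as *SIX3*). Treated cells had received 1 µM doxorubicin and 5 µM etoposide, which act on topoisomerase II, and 1 µM vincristine, which blocks microtubule assembly, over 3 consecutive days, and had then regrown, whereas untreated cells had received none of these drugs. Cells of both conditions were cultured in DMEM with serum, glutamine, insulin, transferrin and selenium. RNA was sequenced in 4 libraries, 1 for each cell line and condition, so that the cell lines served as the replicates of a condition (n = 2) and *p* values measure only the spread between these cultures. An exact permutation test of 2 against 2 libraries cannot give a two-sided *p* value below 0.333, so all tests come from models fitted across 18066 genes.

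The total count per library ranged from 49849258 to 75087194, and each treated library was smaller than its untreated partner. Transcripts of *SMARCB1*, the gene that is lost in most AT/RT, were present at 15.9 to 21.3 CPM (counts scaled to the size of the library with TMM factors), and *MYC* was present at 118 to 207 CPM. In such bulk libraries, fewer cells that express a gene and less RNA per cell cannot be told apart. The authors had removed genes of the sex chromosomes, and *SOX3* was therefore not analysed here.

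SOX proteins bind DNA with an HMG box, PAX proteins with a paired domain, and sine oculis and LHX proteins with a homeodomain, which LHX proteins combine with LIM domains that bind partner proteins such as LDB1. Members of all 4 families set the identity of cells in the embryo. *SOX2* keeps neural progenitors undifferentiated, *SOX8*, *SOX9* and *SOX10* (the SoxE group) act in the neural crest and in glia, and many LHX and PAX genes define regions of the brain, the spinal cord and the eye, while other members act in vessels, kidney, muscle or germ cells. The genes are described below as neural crest (5 genes), neural (21 genes) and other members (15 genes), a grouping made from general knowledge.

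Promoter sequences from RefSeq (GRCh38.p14) matched 26 of the 41 genes, with 48 promoters. *PAX6* had 9 of these and *SOX6* had 5, so that the shares below are shares of promoters and not of genes. The 250 bases before the start of *SOX2* (chr3:181711675-181711924, plus strand), *SOX12* (chr20:325302-325551, plus strand), *LHX2* (chr9:124011518-124011767, plus strand) and *PAX8* (chr2:113278922-113279171, minus strand) are shown 5′ to 3′, because *SOX2* and *SOX12* were the abundant members that fell after treatment, *LHX2* was the most abundant LHX gene and *PAX8* rose from very few counts. Capitals mark the CCAAT box, which reads CCAAT, or ATTGG where it lies on the other strand. The RefSeq start used for *LHX2* lies inside the span that GENCODE gives for the gene.
SOX2: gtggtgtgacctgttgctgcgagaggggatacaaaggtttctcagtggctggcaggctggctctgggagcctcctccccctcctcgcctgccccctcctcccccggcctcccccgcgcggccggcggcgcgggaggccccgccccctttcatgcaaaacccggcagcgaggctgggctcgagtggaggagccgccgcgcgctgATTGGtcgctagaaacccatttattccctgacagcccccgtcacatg
SOX12: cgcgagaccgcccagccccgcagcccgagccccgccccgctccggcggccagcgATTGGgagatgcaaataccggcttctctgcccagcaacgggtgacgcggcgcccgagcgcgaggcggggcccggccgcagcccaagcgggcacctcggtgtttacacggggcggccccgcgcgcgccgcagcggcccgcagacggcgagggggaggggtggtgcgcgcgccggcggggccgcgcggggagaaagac
LHX2: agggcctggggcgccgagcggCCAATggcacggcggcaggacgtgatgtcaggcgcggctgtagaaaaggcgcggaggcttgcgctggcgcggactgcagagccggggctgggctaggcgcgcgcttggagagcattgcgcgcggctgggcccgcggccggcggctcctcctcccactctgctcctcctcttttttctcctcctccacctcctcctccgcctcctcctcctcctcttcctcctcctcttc
PAX8: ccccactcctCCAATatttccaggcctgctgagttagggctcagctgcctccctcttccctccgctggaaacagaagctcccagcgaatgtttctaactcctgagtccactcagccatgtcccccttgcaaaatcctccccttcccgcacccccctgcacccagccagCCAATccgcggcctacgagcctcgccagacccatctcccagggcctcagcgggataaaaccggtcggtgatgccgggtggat
The G and C content was 68.8% in the *SOX2* window, 79.2% in that of *SOX12*, 70.4% in that of *LHX2* and 61.6% in that of *PAX8*, and the number of CpG sites was 20, 42, 25 and 11 in the same order. A CCAAT box on either strand was found in 21 of the 48 promoters (43.8%) and in 32.0% of all 35116 promoters of the same length. The TATA box (TATAAA, or TTTATA on the other strand) was found in 7 of the 48 (14.6%) and in 10.7% of all promoters. The core of the SOX binding motif (ACAAT, or ATTGT on the other strand) was found in 12 of the 48 (25.0%) and in 24.6% of all promoters. None of the 3 motifs contains another, their matches may overlap, and a match describes letters and not a bound site. The median G and C content of the 48 promoters was 60.6%, compared with 58.0% for all promoters, so that the 4 windows shown lie above both.

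After treatment, 14 of the 41 genes were upregulated and 3 were downregulated (quasi-likelihood test of edgeR, Benjamini-Hochberg adjusted *p* under 0.05), and 24 did not pass the test. Without the treated BT-16 library 9 rose and 4 fell, without the untreated CHLA-266 library 8 rose and 1 fell, without the untreated BT-16 library 13 rose and 1 fell, and 12 and 2 did without the treated CHLA-266 library. Under upper-quartile scaling 19 rose and 0 fell, and under library totals 17 rose and 1 fell. Among all genes tested, 16.1% were upregulated and 19.1% were downregulated. Genes that rose were *SOX9*, *SOX10*, *SOX30*, *PAX1*, *PAX2*, *PAX4*, *PAX7*, *PAX8*, *SIX3*, *SIX6*, *LHX1*, *LHX3*, *LHX5* and *LHX9*, and genes that fell were *SOX2*, *SOX12* and *SIX5*. By family, 3 SOX genes rose and 2 fell, 5 PAX genes rose, 2 sine oculis genes rose and 1 fell, and 4 LHX genes rose. No PAX or LHX gene fell in edgeR, at an unadjusted *p* under 0.05 or in DESeq2 (0 in each). Over all 41 genes the median log2 fold change was 2.02, compared with 0.24 over all genes. It was also 2.02 with the 3 genes at 0 in both untreated libraries set to their fold over a floor of 3 counts. Both treated libraries were above both untreated ones in 24 of the 41 genes and below them in 5, compared with 40.2% and 32.3% of all genes.

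Most of the genes that rose were scarce. Of 20 members with a mean of at least 1 CPM over the 4 libraries, 4 rose and 3 fell with a median log2 fold change of 0.27, whereas 14.1% of all genes at that level rose, 28.4% fell and the median was -0.20. Of the 21 members with a lower mean, 10 rose with a median of 4.21 (3.58 with genes at 0 set to their fold over the floor), whereas 20.2% of all genes at that level rose and their median was 3.22. A positive log2 fold change was found in 92.5% of all genes at that level and in all 21 of these members. None of them fell in edgeR, at an unadjusted *p* under 0.05 or in DESeq2 (0 in each), and 0.0847% of all genes at that level fell.

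**Figure D1:**
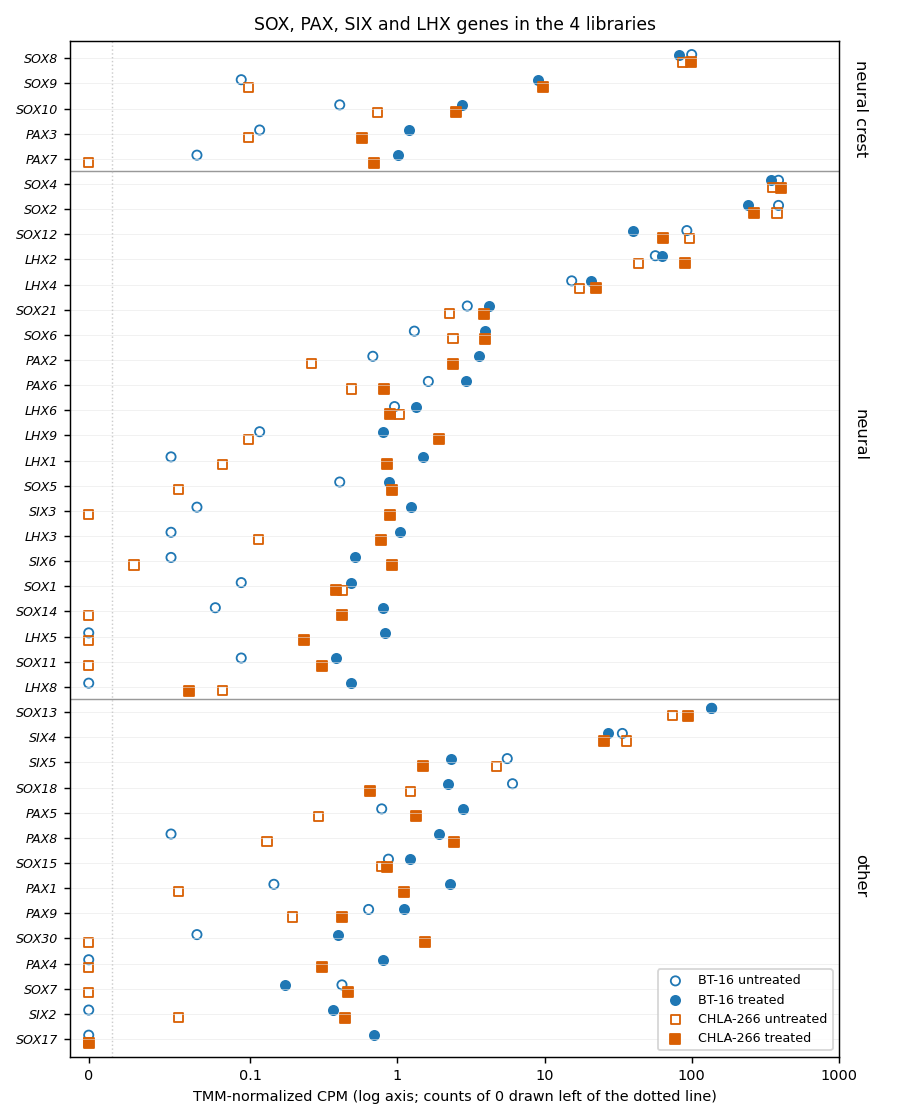
TMM-normalized CPM (log axis) of 40 of the 41 genes in the 4 libraries, by class and ordered by mean CPM within a class. Open symbols are untreated and filled symbols treated libraries, circles BT-16 and squares CHLA-266; *SOX9* rises from under 0.1 to 8.99 and 9.78 CPM while *SOX2* falls in both cell lines.

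More genes were detected after treatment in spite of the smaller libraries, among the members and among all genes. Over all 18449 symbols, reads were found for 16079 before and 17815 after treatment in BT-16, against 15464 and 17114 in CHLA-266. Of the 41 members, reads were found for 36 before and 41 after treatment in BT-16, against 32 and 40 in CHLA-266. Thinning every library to the smallest total gave 35, 41, 32 and 40 members. With at least 1 CPM, the numbers of members before and after treatment were 14 and 28 in BT-16, against 14 and 20 in CHLA-266. The summed level of the 41 genes nevertheless went from 1246 to 1017 CPM in BT-16 and from 1119 to 1111 CPM in CHLA-266, and *SOX2* and *SOX4* made up 57.7% to 65.9% of it in each library. The summed PAX level went from 4.06 to 17.6 CPM in BT-16 and from 1.49 to 10.1 CPM in CHLA-266. That of the olfactory receptor genes went from 7.10 to 94.0 CPM in BT-16 and from 8.37 to 68.8 CPM in CHLA-266.

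Per kilobase of exon, *SOX2* was the most abundant member with a mean of 153 CPM per kb before and 101 after treatment, followed by *SOX4* with 76.6 before and 76.6 after. *SOX8*, *SOX12* and *LHX2* came next in untreated cells with means of 20.8, 20.3 and 20.0 CPM per kb, and their ranges over the 2 untreated libraries overlapped, so that their order is not resolved. *SOX13* at 10.0 to 18.4 CPM per kb also overlapped *LHX2* at 17.4 to 22.7. After treatment the ranges of *SOX8*, *SOX12* and *LHX2* no longer overlapped, with means of 20.2 for *SOX8*, 11.1 for *SOX12* and 30.4 for *LHX2*. *SOX13* had a mean of 14.2 before and 15.4 after, *SIX4* one of 5.16 and 3.86, and *LHX4* one of 2.68 and 3.53. No PAX gene reached 1 CPM per kb in any library.

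Among the neural crest members, 3 of 5 genes rose (*SOX9*, *SOX10* and *PAX7*) with a median log2 fold change of 3.03 over the 5 genes. None fell in edgeR, at an unadjusted *p* under 0.05 or in DESeq2 (0 in each). Of all genes tested, 16.1% rose. Among all genes with a mean under 1 CPM, 20.2% rose and the median log2 fold change was 3.22, close to that of the 5 genes. At a mean of at least 1 CPM, 14.1% rose and the median was -0.20. *SOX9* (chr17:72121020-72126416), which directs cartilage formation and also acts in the neural crest and in glial progenitors, had 6 counts in each untreated library, 520 in treated BT-16 and 508 in treated CHLA-266 cells. Both treated libraries lay far above both untreated ones, and the values of the cell lines were close, with 8.99 and 9.78 CPM after treatment. The log2 fold change was 6.64 ± 0.48 (standard error, as in all values below with this sign, edgeR adjusted *p* = 2.74e-05). Within the cell lines, the log2 ratio was 6.58 in BT-16 (95% counting interval 5.56 to 8.15) and 6.53 in CHLA-266 (5.52 to 8.10). Leaving out each library in turn moved the log2 fold change only from 6.56 to 6.72. By adjusted *p* value it ranked 9 among the 2910 genes that rose, although 339 of them had a larger log2 fold change.

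*SOX10* (chr22:37970686-37987422), a regulator of Schwann cells, oligodendrocytes and melanocytes, rose from 0.406 to 2.75 CPM in BT-16 and from 0.731 to 2.50 CPM in CHLA-266. The groups did not overlap, and the log2 ratio was 2.74 (2.17 to 3.40) in BT-16 and 1.76 (1.28 to 2.30) in CHLA-266. It passed edgeR's test (adjusted *p* = 0.0232), but not without the untreated BT-16 library (log2 fold change 1.84, adjusted *p* = 0.0732 in edgeR). *SOX10* shares exon sequence with *POLR2F* on the opposite strand. *PAX7* (chr1:18630846-18748866), which acts in the neural crest and in muscle stem cells, had 3 counts before and 58 after treatment in BT-16, against 0 and 36 in CHLA-266. It was near 0 before and low after treatment in both lines, with a log2 fold change of 5.12 ± 1.48 (edgeR adjusted *p* = 0.0278). In treated CHLA-266 cells the level was 14.2 times a floor of 3 counts in the untreated library, and the log2 counting interval began at 3.46. The call of *PAX7* was lost without the treated BT-16 library (edgeR adjusted *p* = 0.0839) and without the untreated CHLA-266 library (adjusted *p* = 0.0601), where the log2 fold change was 4.22. Without the untreated BT-16 library, which leaves the untreated level at 0, the fitted value was 8.6 and depends on the prior count.

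*PAX3*, which acts with *PAX7* at the border of the neural plate, had 8 counts before and 69 after treatment in BT-16, against 6 and 30 in CHLA-266. The treated libraries were the higher ones, but the difference missed the threshold (log2 fold change 3.03 ± 1.06, edgeR adjusted *p* = 0.0544) and passed it in 6 of 10 other fits. *SOX8* was the abundant SoxE gene, with 99.9 CPM before and 81.7 after treatment in BT-16, against 86.2 and 98.6 in CHLA-266. Its groups overlapped, and its log2 fold change was -0.05 ± 0.17 (edgeR adjusted *p* = 0.847), with a sign that turned under DESeq2 size factors (0.02), library totals (0.18) and upper-quartile scaling (0.30). After treatment *SOX9* stood at 2.29 and 2.49 CPM per kb, below *SOX8* at 18.3 and 22.1 CPM per kb.

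**Figure D2:**
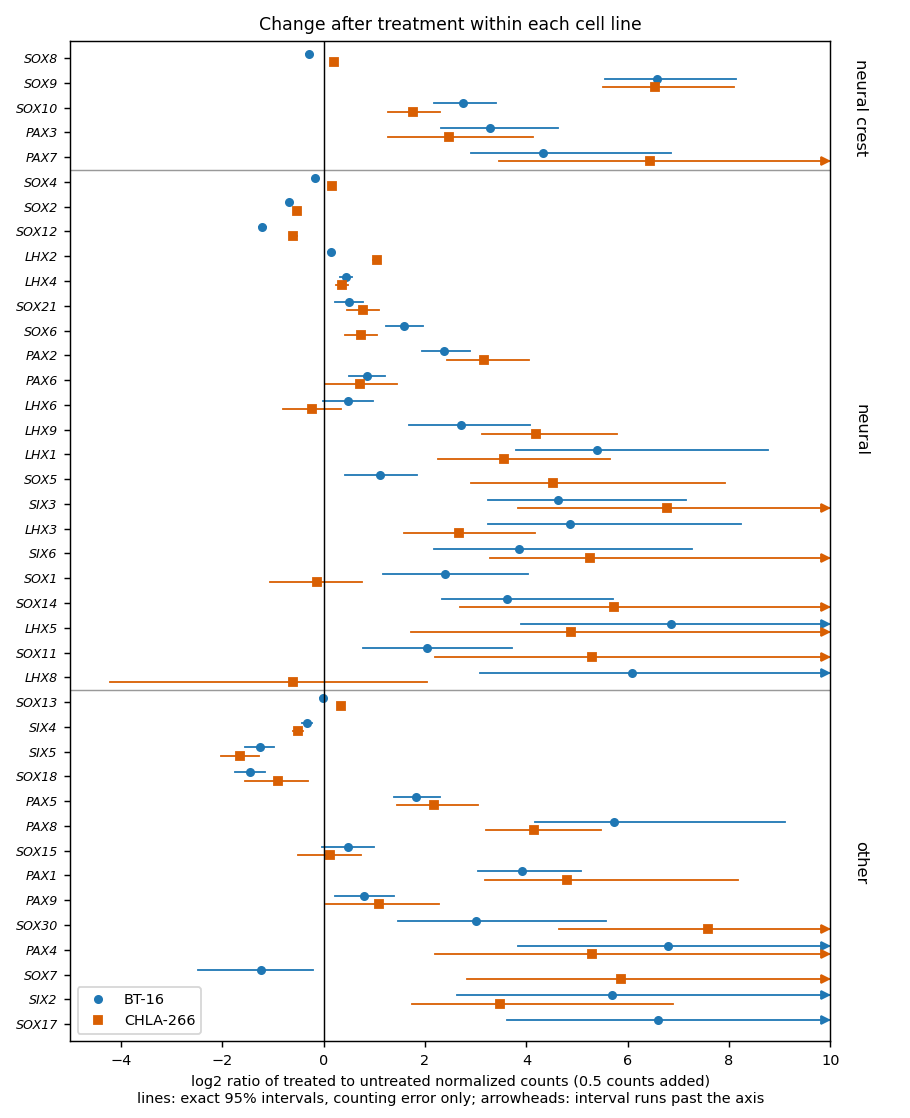
Treated over untreated counts as a log2 ratio within BT-16 (circles) and CHLA-266 (squares) for 40 of the 41 genes, with exact 95% intervals that cover counting error only and arrowheads where an interval leaves the axis. *SOX9* shows close ratios in both lines (6.58 and 6.53), while *SOX8*, *SOX4*, *SOX13*, *SOX1*, *LHX6*, *LHX8* and *SOX7* lie on opposite sides of 0.

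Among the neural members, 7 of 21 genes rose and 2 fell, with a median log2 fold change of 2.02, and 4 rose without the untreated or without the treated CHLA-266 library. Of all genes tested, 16.1% rose and 19.1% fell, and the median was 3.22 among all genes with a mean under 1 CPM. The 2 neural members that fell were both abundant. *SOX2* (chr3:181711925-181714436), the factor of neural progenitors, had 389 and 380 CPM in untreated BT-16 and CHLA-266 cells and 242 and 263 CPM in treated cells. Both treated libraries were below both untreated ones, and the level was 1.52-fold lower after treatment (log2 fold change -0.60 ± 0.16, edgeR adjusted *p* = 0.0190). *SOX12* (chr20:325552-330224), a SoxC gene like *SOX4* and *SOX11*, had 92.6 and 96.8 CPM in untreated and 40.1 and 64.0 CPM in treated cells. Its groups did not overlap either, with a 1.82-fold lower level (log2 fold change -0.87 ± 0.22, edgeR adjusted *p* = 0.0177) and a log2 ratio of -1.21 in BT-16 and -0.60 in CHLA-266. Both genes kept a negative sign in all fits, but upper-quartile scaling, under which the median of all genes moved from 0.24 to 0.59, ended both calls (log2 fold change -0.26 and -0.52, adjusted *p* = 0.199 and 0.0777 in edgeR), and library totals, with a median of 0.46, ended that of *SOX2* (-0.38, adjusted *p* = 0.0692). *SOX2* also missed the threshold without the untreated BT-16 library (edgeR adjusted *p* = 0.0833) or the untreated CHLA-266 library (0.0705), and *SOX12* without the latter (0.0544).

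*SOX4*, the abundant SoxC gene, did not pass the test. It had 389 and 357 CPM in untreated and 345 and 402 CPM in treated cells, so that the groups overlapped, and the log2 fold change was 0.00 ± 0.17 (edgeR adjusted *p* = 0.997), with its sign depending on the fit. *SOX11*, the SoxC gene of immature neurons, had 0 to 6 counts in untreated and 16 to 22 counts in treated cells and did not pass the test.

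*LHX2* (chr9:124001670-124033301), which patterns the forebrain and the eye, was the abundant LHX gene, with 56.6 CPM before and 62.4 after treatment in BT-16, against 43.3 and 89.6 in CHLA-266. The treated libraries were above the untreated ones, but most of the difference lay in CHLA-266, where the log2 ratio was 1.05 (0.98 to 1.12), compared with 0.14 (0.08 to 0.21) in BT-16, a difference that was not tested. The log2 fold change of 0.61 ± 0.22 missed the threshold (edgeR adjusted *p* = 0.0581) but passed it in 8 of 10 other fits, among them that with the cell line as a block (edgeR adjusted *p* = 0.00718). It also passed without the untreated (0.0487) or the treated BT-16 library (0.000922), but not without the untreated (log2 fold change 0.43, edgeR adjusted *p* = 0.259) or the treated CHLA-266 library (0.34, adjusted *p* = 0.254). *LHX4*, which acts in pituitary and motor neuron development, had 15.3 CPM before and 20.7 after treatment in BT-16, against 17.3 and 22.2 in CHLA-266 and did not pass (log2 fold change 0.40, adjusted *p* = 0.165 in edgeR). *LHX6*, a factor of cortical interneurons, ranged from 0.885 to 1.33 CPM with overlapping groups.

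The other LHX genes were scarce. *LHX1*, which acts in the organizer, the kidney and the brain, had 2 counts before and 87 after treatment in BT-16, against 4 and 44 in CHLA-266 (log2 fold change 4.60 ± 1.08, edgeR adjusted *p* = 0.0122, and 0.0800 without the treated BT-16 library, with a log2 fold change of 5.24 without the untreated CHLA-266 library). *LHX9*, a factor of the gonad and the brain, had 8 counts before and 46 after treatment in BT-16, against 6 and 100 in CHLA-266 (log2 fold change 3.64 ± 0.94, edgeR adjusted *p* = 0.0182, and 0.0515 without the untreated and 0.241, at a log2 fold change of 2.89, without the treated CHLA-266 library). *LHX3*, a pituitary and motor neuron factor, had 2 counts before and 60 after treatment in BT-16, against 7 and 40 in CHLA-266 (log2 fold change 3.64 ± 1.17, edgeR adjusted *p* = 0.0403). In all 3 genes both treated libraries exceeded both untreated ones, yet no treated level went above 1.92 CPM. *LHX3* was not called with the cell line as a block (edgeR adjusted *p* = 0.0617) or without the untreated BT-16 (0.108), treated BT-16 (0.156) or treated CHLA-266 library (0.0917), and its log2 fold change was 2.97 without the untreated BT-16 and 4.87 without the untreated CHLA-266 library. *LHX5*, a factor of the hypothalamus and the cerebellum, was at 0 in both untreated libraries and at 48 and 12 counts in treated BT-16 and CHLA-266 cells. The mean of *LHX5* was 11.5 times the floor of 3 counts per library (edgeR adjusted *p* = 0.0302), with 19.1 times in BT-16 and 4.74 times in CHLA-266. Its log2 counting intervals began at 3.90 in BT-16 and 1.72 in CHLA-266. The call of *LHX5* was lost without the untreated BT-16, the treated BT-16 or the untreated CHLA-266 library. Its fitted log2 fold change was 6.83 to 8.72 without 1 library and depends on the prior count. *LHX8* had 28 counts in treated BT-16 cells and 0 to 4 in the other libraries.

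Of the remaining neural members, *PAX2*, *SIX3* and *SIX6* rose. *PAX2* (chr10:100735396-100829944), which acts at the border of midbrain and hindbrain and in the kidney, had 47 counts before and 207 after treatment in BT-16, against 16 and 124 in CHLA-266. It was higher in both treated libraries (log2 fold change 2.66 ± 0.67, edgeR adjusted *p* = 0.0167), with a log2 fold change of 2.13 without the untreated CHLA-266 and 3.51 without the untreated BT-16 library. *SIX3*, a factor of the anterior forebrain and the eye, had 3 counts before and 72 after treatment in BT-16, against 0 and 46 in CHLA-266 (log2 fold change 5.45 ± 1.37, edgeR adjusted *p* = 0.0163), and its close relative *SIX6* had 2 counts before and 30 after treatment in BT-16, against 1 and 48 in CHLA-266 (log2 fold change 4.86 ± 1.38, edgeR adjusted *p* = 0.0261). Both were near 0 in untreated cells and reached at most 1.25 CPM. The log2 fold change of *SIX3* was 4.55 without the untreated CHLA-266 library, and its fitted value without the untreated BT-16 library, which leaves the untreated level at 0, was 8.93. *SIX6* missed the threshold with the cell line as a block (edgeR adjusted *p* = 0.0551) and without the untreated BT-16 (0.0559), untreated CHLA-266 (0.0729) or treated CHLA-266 library (0.209).

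*PAX6*, a factor of the eye and of cortical progenitors, had 1.62 CPM before and 2.92 after treatment in BT-16, against 0.487 and 0.808 in CHLA-266. Both BT-16 libraries were above both CHLA-266 libraries, without passing the test between the lines, and the treated and untreated libraries overlapped (log2 fold change 0.82 ± 0.82, edgeR adjusted *p* = 0.444, with a log2 fold change of -0.38 without the treated BT-16 library). *SOX21*, which antagonizes progenitor factors, had 2.99 CPM before and 4.22 after treatment in BT-16, against 2.27 and 3.89 in CHLA-266, and *SOX6*, a SoxD gene of cartilage and interneurons, had 1.30 CPM before and 3.93 after treatment in BT-16, against 2.39 and 3.96 in CHLA-266. Both were higher in both treated libraries but did not pass (edgeR adjusted *p* = 0.263 and 0.105). *SOX1*, *SOX5* and *SOX14* had 0 to 51 counts and did not pass either, although *SOX5* and *SOX14* passed without the untreated BT-16 library (edgeR adjusted *p* = 0.0417 and 0.0424).

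Among the other members, 4 of 15 genes rose and 1 fell, with a median log2 fold change of 0.87, and 2 rose without the treated BT-16 or without the untreated CHLA-266 library. Of all genes tested, 16.1% rose and 19.1% fell, with a median of 0.24. *PAX8* (chr2:113215997-113278921), a factor of thyroid and kidney, had 2 counts before and 111 after treatment in BT-16, against 8 and 127 in CHLA-266. Its treated libraries were far above the untreated ones (log2 fold change 4.76 ± 0.90, edgeR adjusted *p* = 0.00508), with a log2 ratio of 5.73 (4.16 to 9.11) in BT-16 and 4.15 (3.21 to 5.48) in CHLA-266. Without the untreated BT-16 library the log2 fold change was 4.05, and without the untreated CHLA-266 library it was 6.13. *PAX1*, a factor of the sclerotome and the thymus, had 10 counts before and 132 after treatment in BT-16, against 2 and 58 in CHLA-266 (log2 fold change 4.21 ± 0.99, edgeR adjusted *p* = 0.0124, and 0.0543 without the treated BT-16 library). Its log2 fold change was 3.62 without the treated BT-16, 3.53 without the untreated CHLA-266 and 5.62 without the untreated BT-16 library. *PAX4*, a factor of pancreatic islets, was at 0 in both untreated libraries and at 46 and 16 counts in treated BT-16 and CHLA-266 cells (edgeR adjusted *p* = 0.0260). Its mean was 12.0 times the floor of 3 counts per library, with 18.3 times in BT-16 and 6.32 times in CHLA-266. The call of *PAX4* was lost without the untreated BT-16 (edgeR adjusted *p* = 0.0546), treated BT-16 (0.143) or untreated CHLA-266 library (0.0537). *SOX30*, a gene of male germ cells, had 3 counts before and 23 after treatment in BT-16, against 0 and 80 in CHLA-266 (log2 fold change 5.31 ± 1.52, edgeR adjusted *p* = 0.0270, and 0.0627 without the untreated and 0.298 without the treated CHLA-266 library). The log2 fold change of *SOX30* was 4.41 and 4.06 without these libraries and 5.98 without the treated BT-16 library, and its fitted value without the untreated BT-16 library, which leaves the untreated level at 0, was 8.79. Each of these 4 genes was higher in both treated libraries, and none exceeded 2.44 CPM.

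*PAX5*, the B cell factor that also acts in the midbrain, had 54 counts before and 161 after treatment in BT-16, against 18 and 70 in CHLA-266. Its groups did not overlap, and it missed the threshold (log2 fold change 1.94 ± 0.75, edgeR adjusted *p* = 0.0738) but passed it with the cell line as a block (adjusted *p* = 0.0438), without the untreated BT-16 library (0.0430) and without the treated CHLA-266 library (0.0406). Without the treated BT-16 library (log2 fold change 1.32, edgeR adjusted *p* = 0.357) or the untreated CHLA-266 library (1.40, adjusted *p* = 0.214) it did not pass. *PAX9*, a factor of teeth and thymus, had 44 counts before and 64 after treatment in BT-16, against 12 and 22 in CHLA-266 with overlapping groups, and *SOX15* ranged from 0.780 to 1.21 CPM. *SIX2*, a factor of kidney progenitors, had 0 counts before and 21 after treatment in BT-16, against 2 and 23 in CHLA-266 (edgeR adjusted *p* = 0.104). *SOX7* and *SOX17*, which act in endothelium and endoderm, had 0 to 40 counts and did not pass. *SOX17* was at 0 in both CHLA-266 libraries, and it passed without the treated one (edgeR adjusted *p* = 0.0360).

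*SIX4*, at 3.73 to 5.33 CPM per kb, and the less abundant *SIX5*, at 0.419 to 1.56 CPM per kb, had lower values after treatment. *SIX5* (chr19:45764785-45769252), which lies beside the myotonic dystrophy locus, had 5.58 and 4.71 CPM in untreated and 2.32 and 1.50 CPM in treated cells of BT-16 and CHLA-266. The groups did not overlap, and the level was 2.70-fold lower (log2 fold change -1.43 ± 0.43, edgeR adjusted *p* = 0.0332). This call was lost without the untreated BT-16 (edgeR adjusted *p* = 0.101), untreated CHLA-266 (0.0576) or treated CHLA-266 library (0.132), under library totals (0.0748) and under upper-quartile scaling (0.0921). *SIX4* had 33.8 and 36.1 CPM in untreated and 26.9 and 25.3 CPM in treated cells. It did not pass the test (log2 fold change -0.42 ± 0.18, edgeR adjusted *p* = 0.0965), although both treated libraries were below both untreated ones. On chromosome 2, *SIX3* and *SIX2* lie 59.1 kb apart, and both were scarce.

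The levels of few of these genes differed between the cell lines. In a model with condition and cell line, 2 of the 41 genes were higher in BT-16 and 0 in CHLA-266 (edgeR), compared with 1.46% and 0.836% of all genes. At an unadjusted *p* under 0.05, 1 gene was higher in CHLA-266, and in DESeq2 the number was 0. *SOX13*, a SoxD gene of T cells and neural tissue, had 137 CPM before and 135 after treatment in BT-16, against 74.2 and 93.7 in CHLA-266. Both BT-16 libraries were higher than both CHLA-266 libraries (log2 difference of BT-16 minus CHLA-266 0.70 ± 0.15, edgeR adjusted *p* = 0.00630). *SOX18*, a factor of blood and lymph vessels, had 6.06 CPM before and 2.21 after treatment in BT-16, against 1.23 and 0.654 in CHLA-266 (log2 difference 2.03 ± 0.54, edgeR adjusted *p* = 0.0381). *SOX18* did not pass in DESeq2 (adjusted *p* = 0.0998) or with the filter of edgeR on low counts (0.113). Neither gene passed when any 1 library was left out, in a fit that then lacked the condition (adjusted *p* of about 1.00 in edgeR). *SOX18* had the lower value after treatment in both lines, but the groups overlapped and the difference was not called (log2 fold change -1.34 ± 0.82, edgeR adjusted *p* = 0.222), its sign turned without the untreated BT-16 library (0.22), and it passed without the treated BT-16 library (-2.47, adjusted *p* = 0.00483) or the untreated CHLA-266 library (-2.07, 0.0492).

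The levels that scarce members reached were set beside those of 380 olfactory receptor genes, which are used in sensory neurons of the nose. In treated cells, 95% of these receptors lay at or below 0.455 CPM per kb in BT-16 and 0.409 in CHLA-266, compared with 0.0595 and 0.0618 in untreated cells. Of the 335 receptors that were tested, 8.06% rose in edgeR, and their median log2 fold change was 4.16. Among the 14 members that rose, *SOX9* and *SOX10* lay above this level in both treated libraries (14.3%), compared with 47.6% of the 2904 genes that rose and had an exon length. *SOX9* was at 2.29 and 2.49 CPM per kb and *SOX10* at 0.570 and 0.518. *PAX2* (0.544) and *SIX3* (0.459) lay above it in treated BT-16 cells and *SOX30* (0.441) in treated CHLA-266 cells, whereas the other 9 genes that rose lay below it in both. Of the 8 members with at most 3 counts in both untreated libraries, 6 rose, compared with 25.6% of all genes with so few counts. Whether the rise of the scarce members has the same source as that of the olfactory receptors was not tested.

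**Figure D3:**
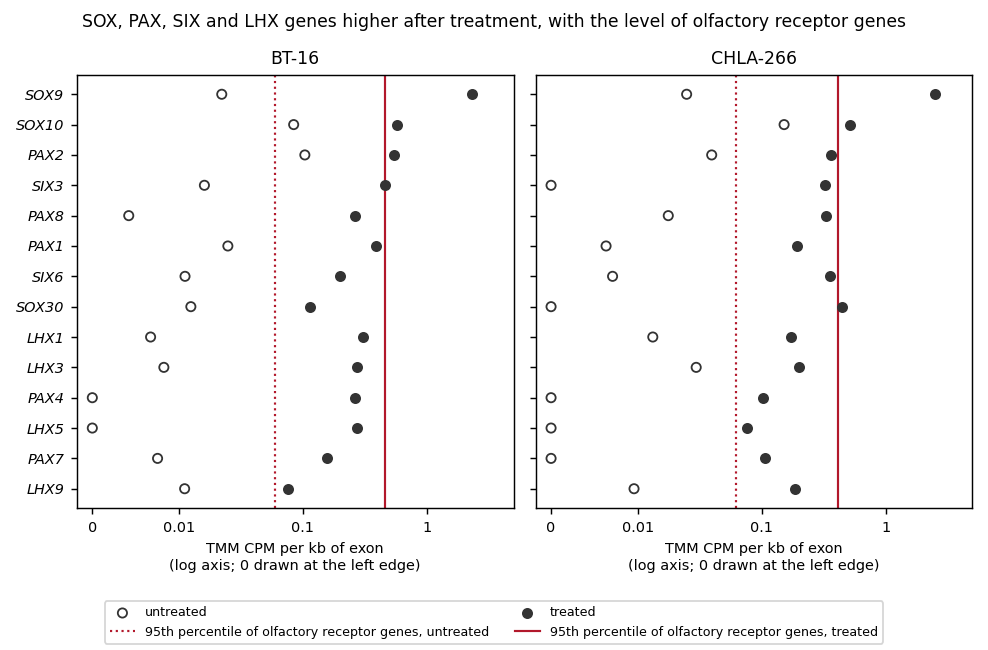
TMM CPM per kb of exon (log axis) of the 14 genes that rose, in untreated (open) and treated (filled) BT-16 and CHLA-266 cells, with lines at the level below which 95% of olfactory receptor genes lay in the same library. *SOX9* at 2.29 and 2.49 CPM per kb lies to the right of the treated line in both panels, and most other genes lie to its left.

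Genes that work with these factors or are known to follow them were counted in lists written from general knowledge. For comparison with every list, 16.1% of all genes tested rose and 19.1% fell. Among all genes with a mean under 1 CPM, 20.2% rose and the median log2 fold change was 3.22. At a mean of at least 1 CPM, 14.1% rose and the median was -0.20. Of 9 measured cofactors of sine oculis proteins, 3 rose (*TLE4*, *EYA4* and *EYA1*) and 0 fell, with a median log2 fold change of 2.81. *TLE4*, a corepressor, rose from 0.188 to 3.94 CPM in BT-16 and from 0.130 to 2.42 CPM in CHLA-266 (edgeR adjusted *p* = 0.00196), while the abundant *TLE2* had 65.3 to 119 CPM and did not pass. Of 13 LIM partners and LIM homeodomain relatives, 1 rose and 0 fell, whereas 5 were higher at an unadjusted *p* under 0.05, 5 in DESeq2 and 2 when edgeR blocked on the cell line, which added *SSBP3* (log2 fold change 0.44, adjusted *p* = 0.0256 in edgeR). The gene that rose without the block was *LMO4*, with 24.2 CPM before and 33.2 after treatment in BT-16, against 14.1 and 55.6 in CHLA-266 (log2 fold change 1.21 ± 0.31, edgeR adjusted *p* = 0.0181), and like *LHX2* it had the larger ratio in CHLA-266, a difference that was not tested. No gene of these 2 lists fell at an unadjusted *p* under 0.05 or in DESeq2 (0 in each).

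Of 16 neural crest regulators outside the 4 families, 7 rose and 0 fell (also 0 at an unadjusted *p* under 0.05 and in DESeq2), with a median log2 fold change of 1.78. *SNAI2* had 0 counts in both untreated libraries and 218 and 40 in treated cells, *MYCN* had 0 counts before and 58 and 8 after treatment, *DLX5* had 8 counts before and 88 after treatment in BT-16, against 0 and 166 in CHLA-266, and *TFAP2A*, the abundant gene of the list, had 31.7 CPM before and 44.2 after treatment in BT-16, against 35.5 and 61.4 in CHLA-266 (edgeR adjusted *p* = 0.00306, 0.0305, 0.0106 and 0.0350 in this order). Of 12 glial and melanocyte genes that are linked to *SOX10*, *MITF* and *MBP* rose and *ERBB3* fell in edgeR, whereas 5 were higher and 1 lower at an unadjusted *p* under 0.05, and also in DESeq2. *ERBB3*, a receptor of crest-derived glia, had 23.7 CPM before and 14.5 after treatment in BT-16, against 19.0 and 9.47 in CHLA-266 (log2 fold change -0.84 ± 0.27, edgeR adjusted *p* = 0.0420), in the opposite direction to *SOX10*.

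Of 11 cartilage genes linked to *SOX9*, 6 rose and 0 fell (also 0 at an unadjusted *p* under 0.05 and in DESeq2), with a median log2 fold change of 2.95. *COL9A2* and *COL11A2* lay above the level below which 95% of olfactory receptor genes lay in both treated libraries. *COL2A1* did so in 1 treated library and *ACAN*, *COL11A1* and *HAPLN1* in 0. Whether the rise of these 6 genes is tied to *SOX9* was not tested. *COL11A2* had 3.61 CPM before and 11.0 after treatment in BT-16, against 3.79 and 17.1 in CHLA-266 (log2 fold change 1.92 ± 0.33, edgeR adjusted *p* = 0.00293), and *COL2A1*, the main collagen of cartilage, had 0.493 CPM before and 4.55 after treatment in BT-16, against 0.162 and 2.56 in CHLA-266 (edgeR adjusted *p* = 0.00754). The groups did not overlap in either gene. Of 11 neural progenitor genes linked to *SOX2*, 3 rose (*GFAP*, *PROM1* and *POU3F2*) and 2 fell, and those that fell were abundant. *NES*, an intermediate filament of progenitors, had 745 CPM before and 502 after treatment in BT-16, against 736 and 384 in CHLA-266 (log2 fold change -0.74 ± 0.18, edgeR adjusted *p* = 0.0157), and *NOTCH1* had 220 CPM before and 132 after treatment in BT-16, against 191 and 121 in CHLA-266 (adjusted *p* = 0.0122). *GFAP*, an astrocyte filament, rose from 6 and 4 counts to 167 and 78 in BT-16 and CHLA-266 (edgeR adjusted *p* = 0.00307). *PROM1* rose from 5 and 3 counts to 61 and 67 in BT-16 and CHLA-266 (edgeR adjusted *p* = 0.0128). Of 10 neuronal genes, 5 rose and 0 fell (also 0 at an unadjusted *p* under 0.05 and in DESeq2), among them *MAP2* with 6.80 CPM before and 20.0 after treatment in BT-16, against 0.845 and 24.1 in CHLA-266 (edgeR adjusted *p* = 0.0275). With the cell line as a block 3 of the 10 rose, since *ELAVL4* and *SNAP25* were no longer called (edgeR adjusted *p* = 0.0712 and 0.1005).

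Markers of other cell types were counted as well, beside 16.1% of all genes and 20.2% of genes with a mean under 1 CPM that rose. Of 9 endothelial markers 4 rose, and of 12 leukocyte and macrophage markers 4 rose, with 0 lower in edgeR, at an unadjusted *p* under 0.05 and in DESeq2. With the cell line as a block, 3 rose in each list, since *TIE1* and *CD3D* were no longer called (edgeR adjusted *p* = 0.0612 and 0.0814). The log2 fold change was positive for 8 of the endothelial and 10 of the leukocyte markers. *PTPRC*, a leukocyte surface phosphatase, had 4.16 CPM before and 2.89 after treatment in BT-16, against 0.487 and 1.23 in CHLA-266, and did not pass the test. The summed endothelial level was 2.16 and 1.23 CPM in untreated and 14.4 and 9.16 CPM in treated BT-16 and CHLA-266 cells, and the summed leukocyte level was 6.77 and 3.64 CPM in untreated and 13.9 and 11.0 CPM in treated cells. Of the endothelial markers, 2 and 3 were at 0 in untreated and 1 and 1 in treated BT-16 and CHLA-266 cells. Of the leukocyte markers, 3 and 3 were at 0 in untreated and 1 and 2 in treated cells. Their part in the rise of the scarce members was not tested.

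**Figure D4:**
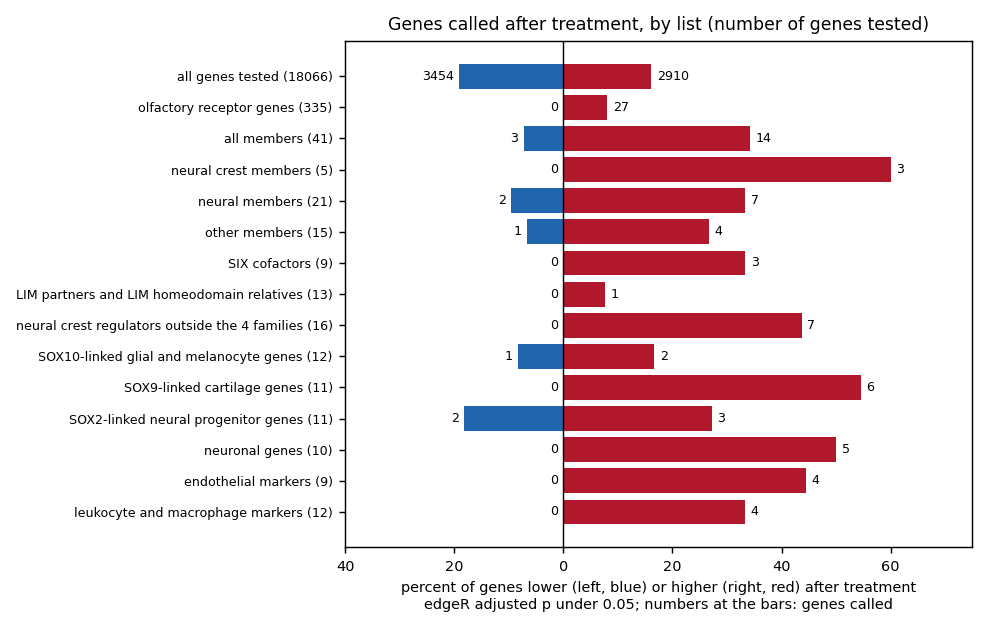
Percent of the genes of each list that were lower (left) or higher (right) after treatment in edgeR, the number called at each bar and the number tested in brackets; members are the 41 genes. Of all genes 16.1% were higher, compared with 14 of the 41 members and 6 of the 11 cartilage genes.

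Among the 14 members that rose, *SOX9*, *PAX2*, *PAX8* and *SIX3* passed the test without each of the 4 libraries in turn, and of the 3 members that fell, 0 did. Reads of overlapping genes on the other strand cannot be told apart, among the members that rose or fell, from those of *PAX8*, *SIX3*, *SIX5*, *LHX1*, *LHX5* and *SOX10*, since the sources used here do not say whether the counting used the strand.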

How the data were processed

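RNA of untreated and treated BT-16 and CHLA-266 cells was sequenced in 4 libraries, 1 per cell line and condition. Whether the cultures and libraries were prepared in 1 batch is not stated in the sources used here. According to the methods, 10 ng of RNA per library was amplified with a stranded kit, reads were demultiplexed with bcl2fastq 2.20, trimmed with Skewer, aligned to hg38 with STAR (version not given in the sources used here) and counted per gene, and repeatedly counted genes and genes of the sex chromosomes were removed. The authors deposited estimated counts, that is, reads per symbol with no normalization, and 5 values in 2 genes had to be rounded to whole numbers. As a second table the authors deposited log2 values from the variance-stabilizing transformation of DESeq2, limited to genes that total 10 counts or more. Whether both mates of a read pair were counted is not stated, and low counts were mostly even. Intervals cover counting error only, and they are too narrow if both mates were counted.

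The conditions were compared by edgeR 4.0.16 in R 4.3.3 (quasi-likelihood test, TMM, no covariate, Benjamini-Hochberg adjustment over 18066 genes with a nonzero total, threshold 0.05), and the cell lines with the condition in the model. Alternatives were the cell line as a replicate block, DESeq2 1.42.0 with and without it, DESeq2 size factors, upper-quartile scaling, library totals, 2 filters on low counts, limma 3.58.1 on the deposited log2 values, halved counts and each library left out in turn. A library left out leaves a condition with 1 library, which is then assumed to vary like the other condition. The libraries are paired by cell line, and the deviations of the paired libraries from the condition means correlated with r = 0.368 across 12162 genes, which are not independent replicates. Ratios within a line used TMM-scaled counts with 0.5 added and exact Clopper-Pearson 95% intervals, with 1 library per line and condition and therefore no test. Where the untreated count was 0, folds were taken over a floor of 3 counts per library, which is a convention and not a confidence bound. Levels between genes were compared per kb of exon (GENCODE 44, hg38). The scripts were tested on simulated data.

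The genes, their classes and the other lists were chosen with earlier results of these data known. Values are given for every member that passed a test or reached 1 CPM in a library and for *SOX10*. For the other lists they are given for some genes only, and not for every gene that passed. The most abundant LIM partner, *SSBP2*, and the most abundant gene linked to *SOX10*, *CNP*, did not pass the test. The lists held cofactors of sine oculis proteins, LIM partners, neural crest regulators, genes linked to *SOX10*, *SOX9* and *SOX2*, and neuronal, endothelial, leukocyte and AT/RT genes. *DACH2*, *DCX* and *SYP* were not analysed here. Of the 41 members, 1 is counted but its values are not reported here, and 40 are plotted. Of the AT/RT genes, *MYC* and *SMARCA4* fell and *SMARCB1* did not pass the test.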

Additional observations from a re-analysis of the deposited data

Results flagged for a closer look

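In 7 members the treated library was higher than the untreated one in 1 cell line and lower in the other. The difference between the lines was not tested for any of them, since each line had 1 library per condition. On the log2 scale, the ratio of treated to untreated cells for *SOX8* was -0.29 in BT-16, against 0.20 in CHLA-266. It was -0.17 and 0.17 for *SOX4* and -0.0210 and 0.34 for *SOX13*, which are abundant genes. It was 0.48 and -0.23 for *LHX6*, 2.39 and -0.13 for *SOX1*, 6.09 and -0.60 for *LHX8*, and -1.24 and 5.86 for *SOX7*, which are scarce. For *LHX8* and *SOX7* the largest count in any library was 28 and 29. The 95% counting interval included 0 for *SOX13* in BT-16 (-0.0645 to 0.0224) and for *LHX6* in both lines. In CHLA-266 it also included 0 for *SOX1* (-1.05 to 0.763) and *LHX8* (-4.22 to 2.05). The TMM factors were 0.919 before and 1.12 after treatment in BT-16, against 0.930 and 1.04 in CHLA-266. They lower each ratio compared with library totals, so that the sign of a small negative ratio depends on the scaling.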

How the results depend on the processing

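With 2 libraries per condition, 1 culture each, a member that did not pass the test is not shown to be unchanged, and a difference in response between the lines could not be tested. The number of members higher after treatment was 14 and ranged from 14 to 19 over the 10 other fits and from 8 to 13 without 1 library (neural crest 2 to 3, neural 4 to 7, other 2 to 5). The number lower was 3, with 0 under upper-quartile scaling, 1 under library totals and 1 to 4 without 1 library. For neural members it was 2, 0, 1 and 0 to 2, and for other members 1, 0, 0 and 0 to 2. The cell line as a replicate block gave 14 higher and 3 lower, with *LHX2* and *PAX5* added and *LHX3* and *SIX6* lost, and changed the call of no other member. Among the genes of the other lists it added *SSBP3* and ended the calls of *ELAVL4*, *SNAP25*, *TIE1* and *CD3D*. The 2 members higher in BT-16 became 1 in DESeq2, 1 with the filter of edgeR, 0 without the condition and 0 to 0 without 1 library. Members whose interval within BT-16 lay below 0 were 9, and 4 with library totals. The sign of *SOX8* turned in DESeq2 (0.0223), DESeq2 with the block (0.0203), with DESeq2 size factors (0.0223), library totals (0.18), upper-quartile scaling (0.30) and limma on log2 values (0.0196), and the log2 fold change of *SOX4* was -0.00224 with the replicate block. Without 1 library, the log2 fold change ranged from -0.17 to 0.0855 for *SOX8*, -0.10 to 0.11 for *SOX4*, -0.38 to 1.93 for *PAX6*, -0.17 to 0.43 for *LHX6*, -0.26 to 0.62 for *SOX13*, -0.41 to 7.19 for *SOX7* and -2.47 to 0.22 for *SOX18*. Of all values recomputed per gene for treated against untreated cells, 484 kept direction and side of the threshold, 34 lost the call, 35 gained one and 18 turned. The cause of these changes was not tested.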
